A study of Sus scrofa with 32 samples.

Results

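CD69, CD83, NR4A1, FOS, FOSB, JUN, JUNB, EGR1, DUSP1 and NFKBID, 10 of the 25880 genes in the count tables, were followed through cells of the pig ileum and of blood. They were chosen by name as genes that many cell types transcribe within minutes to hours of a stimulus, with earlier results of these data known, and no threshold on a value was used. All 10 were found in the tables, 9 by their symbol and JUN by its gene identifier. FOS, FOSB, JUN and JUNB encode subunits of AP-1, a transcription factor made of pairs of leucine zipper proteins. EGR1 encodes a zinc finger transcription factor and NR4A1 an orphan nuclear receptor, and both are induced together with the AP-1 genes downstream of MAP kinase and calcium signals. DUSP1 encodes a phosphatase that switches off MAP kinases, and NFKBID an atypical nuclear inhibitor of the NF-κB family, so these genes belong to the feedback arm of the response. CD69 and CD83 encode surface proteins of activated leukocytes. CD69 binds the sphingosine 1-phosphate receptor S1PR1 and so holds lymphocytes in tissue, and it marks resident lymphocytes as well as recently activated ones. CD83 is known from mature dendritic cells and from activated and germinal center B cells. The same genes are also known to be transcribed when tissue is dissociated with enzymes at warm temperature.

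Cells came from 2 seven-week-old mixed-breed pigs, labelled female (pig 1) and male (pig 2). From the distal ileum of each pig 3 dissections were taken, one of Peyer's patch tissue (PP), one free of patches (non-PP) and one of the whole cross section (whole ileum), and peripheral blood mononuclear cells (PBMC) of the same pigs were taken alongside, which gave 6 ileal and 2 blood libraries. The labels give no treatment for any group. Ileal cells passed through DTT, EDTA, an enzyme digestion with shaking, mechanical dissociation, a Percoll gradient and dead cell removal, whereas blood cells were separated in cell preparation tubes, so tissue and preparation cannot be told apart in any comparison of ileum with blood. The 32 deposited samples are 4 sequencing runs of each of the 8 libraries, and 1 library was counted as 1 sample.

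Cells were kept by the study's limits on genes, mitochondrial share and UMIs (unique molecular identifiers, each of which counts 1 captured RNA molecule). This left 48629 cells, 35386 from ileum and 13243 from blood, with 3776 to 7704 cells and 21134542 to 40111934 UMIs in all per library, median depths of 2577.5 to 3583.5 UMIs and median mitochondrial shares of 2.78% to 4.77%. Pairs of libraries shared 21 to 80 cell barcodes, against 20.01 to 76.7 for unrelated draws of barcodes. The library labelled whole ileum pig 1 went against its label. Y-linked genes summed to 165.8 CPM in it (UMIs of a gene scaled to the same total in every library or gate), against 0.161, 0.0746 and 0 in the PP, non-PP and PBMC libraries of pig 1 and 79.2 to 184.7 in the 4 libraries of pig 2. It is kept under its label below, tests of members and lists are also given without it, and the sum labelled pig 1 therefore holds cells with Y-linked UMIs.

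Lineages were gated on marker UMIs in each cell, with at most 1 UMI from each other set of T, B, myeloid, epithelial or stromal markers. The ILC/NK gate set no limit on CD3G, and the T cell and myeloid gates set none on JCHAIN. The T cell gate (CD3E, CD3D, CD3G) held 1471 to 2657 cells per ileal library and 3021 and 2577 cells in blood. The B cell gate (CD79A, CD79B and MS4A1 among its markers) held 27 and 49 cells in the non-PP libraries, 2043 to 4734 in the other ileal libraries and 1549 and 1128 in blood. The gate for innate lymphoid and natural killer (ILC/NK) cells, which lack CD3E and CD3D and have innate receptors or adapters, held 38 to 156 ileal and 513 and 574 blood cells. The myeloid gate held 24 to 71 ileal cells per library and 419 and 1213 in blood. The epithelial gate reached 20 cells in 4 ileal libraries (20 to 97 cells) and in no blood library. Together the gates took 67.0% to 86.0% of the cells of a library.

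On Sscrofa11.1 the genes lie on 5 chromosomes. CD69 spans 62078134 to 62084961 and NR4A1 17403088 to 17407918 on chromosome 5, CD83 10346122 to 10385968 and FOS 98449508 to 98451971 on chromosome 7, and JUNB 66214086 to 66219435 and EGR1 140440829 to 140445302 on chromosome 2. FOSB (51836780 to 51844531), JUN (153686425 to 153687635) and NFKBID (45298289 to 45307471) lie on chromosome 6, and DUSP1 spans 51457924 to 51461095 on chromosome 16. RefSeq lists NR4A1 as a pseudogene in this assembly and the other 9 as protein coding. Promoter and protein sequences were not used here.

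**Figure D1:**
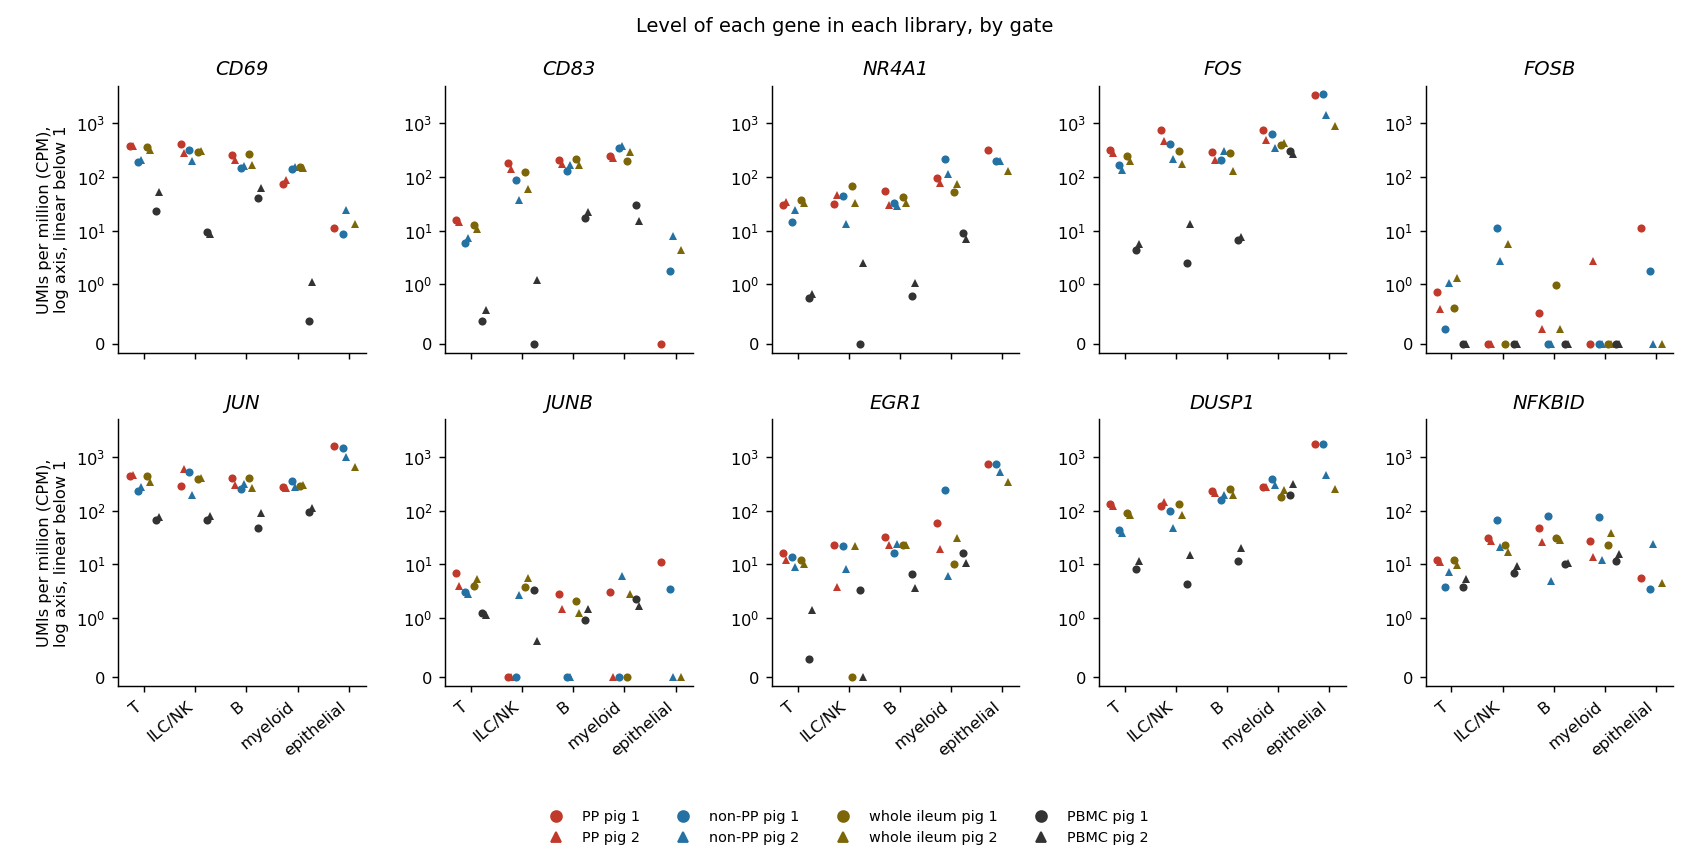
Level in CPM (log axis, linear below 1) of each of the 10 genes in the cells of each gate, 1 point per library with at least 20 gated cells. Colors give the dissection or blood and symbols the pig as labelled. In the T cell gate FOS stands at 133 to 313 CPM in the 6 ileal libraries and at 4.40 and 5.70 CPM in blood, whereas in the myeloid gate DUSP1 of ileum (179 to 384 CPM) and of blood (192 and 308 CPM) overlap.

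Ileal T cells carried more RNA of 8 of these genes than blood T cells of the same pigs, by 3.43 times (JUNB) to 42.3 times (FOS). UMIs were summed per pig and tissue, 2 sums were set against 2 in the quasi-likelihood test of edgeR, and p-values were adjusted over 10403 genes by Benjamini-Hochberg. Of the 9 members tested, 8 were higher in ileum at an adjusted p under 0.05 and none was lower, against 9.11% of all genes tested that were higher and 6.53% that were lower. The median log2 fold change of the 9 was 2.99, against 0.00 for all genes. CD83 passed the filter on low counts through the ileum alone, so its difference was a condition of its being tested, and EGR1 passed it in 1 of 2 blood sums.

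Among the AP-1 genes, FOS stood at 133, 225 and 313 CPM (lowest, median and highest of 6 ileal libraries) and at 4.40 and 5.70 CPM in blood. Ileum and blood were far apart in every library, and the log2 fold change was 5.40 ± 0.21 (SE, 2 pigs, edgeR adjusted p = 0.00111). JUN, its usual partner, was already present in blood T cells at 67.7 and 77.5 CPM and stood at 231, 392.3 and 468 CPM in ileum. The groups did not overlap and JUN differed by 2.28 ± 0.13 (adjusted p = 0.00226). JUNB was scarce, at 2.82 to 6.93 CPM in ileum and 1.24 and 1.12 CPM in blood, and differed by 1.78 ± 0.30 (adjusted p = 0.022). FOSB had 26 UMIs in ileal T cells and none in blood T cells. It stayed under the filter and was not tested, and its level was at least 5.72-fold higher in ileum against a floor of 3 UMIs over both blood libraries.

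EGR1 was close to absent from blood T cells, with 0.309 and 1.40 CPM, and stood at 8.90 to 15.9 CPM in ileum (log2 fold change 3.83 ± 0.56, adjusted p = 0.0167). NR4A1, which reports antigen receptor signaling in T and B cells, was at 0.772 and 0.841 CPM in blood and at 14.6, 31.7 and 37.4 CPM in ileum. Blood and ileum were apart in both genes, and NR4A1 differed by 5.10 ± 0.21 (adjusted p = 0.00111), with values of 5.08 and 5.11 in the pigs taken singly.

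Of the feedback genes, DUSP1 rose from 8.26 and 11.7 CPM in blood to 38.6, 85.5 and 131 CPM in ileum (log2 fold change 2.99 ± 0.20, adjusted p = 0.00297). NFKBID stood at 3.82 to 12.0 CPM in ileum and 3.78 and 5.32 CPM in blood, and the non-PP library of pig 1, at 3.82 CPM, fell inside the blood range. Its difference of 0.95 ± 0.24 missed the threshold (adjusted p = 0.0557) and passed it with the pig as a block (0.96, adjusted p = 0.0195).

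CD69 differed between the pigs in blood, with 23.2 CPM in pig 1 and 53.3 CPM in pig 2, and stood at 187, 342 and 378 CPM in ileum. The tissues were apart in every library and CD69 differed by 2.93 ± 0.41 (adjusted p = 0.0145), 3.69 in one pig and 2.41 in the other. CD83 had 5 and 6 UMIs in the blood T cells of the pigs (0.386 and 0.560 CPM) and 5.86 to 15.4 CPM in ileum (4.47 ± 0.29, adjusted p = 0.00271). Counting levels alone, 9 of the 10 genes in T cells were higher in every ileal library than in both blood libraries, FOSB included and NFKBID not. Of all genes tested 19.1% had that pattern, a share that leaves out genes under the filter such as FOSB. Without the library labelled whole ileum pig 1 the same number of members, 8, was called, with log2 fold changes that moved by −0.12 to 0.06, and 8 were called without both whole ileum libraries.

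Other values moved with the tissue in this gate. The 9 epithelial markers named in the tables summed to 18.5 to 125 CPM in ileal T cells, 8 of 9 above 0 and CDX1 at 0, and to 1.31 and 1.54 CPM in blood T cells, where KRT8, KRT20, CDH17, CDX1 and CDX2 were at 0. JCHAIN of antibody-secreting cells was at 40.9 to 982 CPM against 38.4 and 53.2 CPM, and the platelet gene PPBP at 0 to 0.197 CPM against 34.7 and 264 CPM. Median depth in the gate was 2205 to 2743 UMIs per ileal cell and 3233 and 3329 in blood, and 1.51% to 11.6% of ileal and 6.65% and 14.2% of blood T cells fell in the CD4 gate. The part of these in the differences was not tested.

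**Figure D2:**
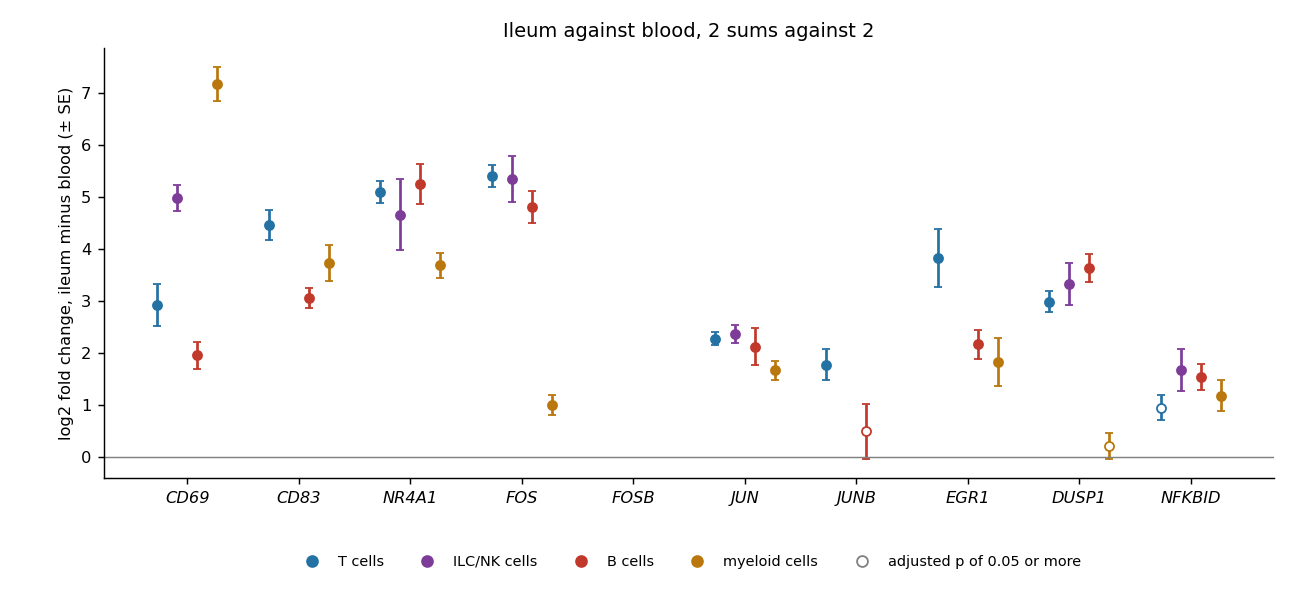
Log2 fold change of each gene, ileum minus blood, with its SE (edgeR, 2 sums against 2), in 4 lineage gates. Open points have an adjusted p of 0.05 or more, genes under the filter have no point, and CD83 in ILC/NK cells, with 2 UMIs in blood, is left out. FOS lies at 5.40, 5.35 and 4.81 in T, ILC/NK and B cells and at 1.00 in myeloid cells, and CD69 at 7.17 in myeloid cells.

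The ILC/NK gate was meant for lymphocytes without rearranged antigen receptors. In it 7 members were tested and all 7 were higher in ileum, against 10.5% of 6541 genes higher and 9.65% lower. The filter had selected for this outcome. CD69, CD83, NR4A1 and NFKBID passed it through the ileal sums alone, FOS and DUSP1 in 1 blood sum, and only JUN in both tissues. CD69 stood at 195, 296 and 411 CPM in ileum and at 9.24 and 8.52 CPM in blood, and the log2 fold change was 4.98 ± 0.26 (adjusted p = 3.69e-06). FOS was at 177, 358 and 736 CPM against 2.52 and 13.4 CPM (5.35 ± 0.44, adjusted p = 5.6e-05), and JUN at 195, 393 and 608 CPM against 65.5 and 78.6 CPM (2.37 ± 0.18, adjusted p = 3.08e-05). No ileal library reached down to blood in either gene.

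CD83 was found in ILC/NK cells of ileum, with 126 UMIs at 37.3 to 178 CPM, and nearly not in those of blood, with 2 UMIs. The ratio of the pooled levels was 137, with an exact 95% interval of 37.1 to 1141 that covers counting error only. DUSP1 (48.0 to 145 CPM against 4.20 and 14.6 CPM, 3.33 ± 0.41), NR4A1 (13.3 to 67.1 CPM against 0 and 2.44 CPM, 4.66 ± 0.69) and NFKBID (16.6 to 66.4 CPM against 6.72 and 9.13 CPM, 1.68 ± 0.40) had adjusted p-values of 0.000596, 0.00156 and 0.0173 in edgeR's test. With DESeq2 NFKBID was not called there (1.76, adjusted p = 0.0941). FOSB, JUNB and EGR1 had 3, 3 and 13 UMIs in ileal ILC/NK cells and were not tested. The 7 tested members were higher in every ileal library than in both blood libraries, where 11.2% of genes were. The filter had selected 4 of them through the ileum alone and 2 in 1 blood sum. Their number can therefore not be set against that share. Without the library labelled whole ileum pig 1, 7 were called, and their log2 fold changes moved by −0.35 to 0.27. Epithelial markers summed to 26.8 to 166 CPM in the ileal gate (6 of 9 above 0) and to 0.840 and 1.83 CPM in blood. Of the T cell markers CD3G alone was above 0, at 256 to 1319 CPM in ileum and 604 and 707 CPM in blood. The study found CD3G in some ILCs, and T cells whose CD3E was missed cannot be told apart from them here. S1PR5, which guides natural killer cells out of tissue, was at 4.10 and 1.22 CPM in the ileal sums and 306 and 256 CPM in blood. The study annotated its ileal ILCs as group 1 and group 3 cells and found its blood ILCs to be largely like natural killer cells. The kinds of cells in this gate can therefore differ between ileum and blood, and their part in the values above was not tested.

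In B cells 8 of 9 members tested were higher in ileum and none lower, where 21.5% of 10423 genes were higher and 20.3% lower. All 9 passed the filter in both tissues. NR4A1 differed most, from 0.809 and 1.07 CPM in blood to 28.8, 32.4 and 53.6 CPM in ileum (5.25 ± 0.38, adjusted p = 0.000471). FOS stood at 131 to 307 CPM against 6.80 and 7.52 CPM (4.81 ± 0.31, adjusted p = 0.000387), and DUSP1 at 161 to 254 CPM against 11.7 and 19.9 CPM (3.64 ± 0.27, adjusted p = 0.000496). In these 3 genes no ileal library reached down to blood.

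CD83 was at 17.5 and 22.6 CPM in blood B cells and at 129, 170 and 217 CPM in ileal ones (3.06 ± 0.19, adjusted p = 0.00035). CD69 (145 to 267 CPM against 41.3 and 61.1 CPM) and JUN (257 to 409 CPM against 47.6 and 90.6 CPM) differed by 1.96 ± 0.25 and 2.13 ± 0.35 (edgeR adjusted p = 0.00241 and 0.0056). EGR1, at 16.1 to 32.5 CPM against 6.47 and 3.58 CPM, differed by 2.18 ± 0.28 (adjusted p = 0.00234). NFKBID differed by 1.54 ± 0.25 (adjusted p = 0.00554), but its ileal range of 4.804 to 80.5 CPM enclosed the 10.2 and 10.7 CPM of blood, and both extremes came from non-PP libraries with 27 and 49 B cells.

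JUNB was at 0 to 2.80 CPM in ileal and 0.971 and 1.43 CPM in blood B cells, and its difference of 0.50 ± 0.53 did not pass (adjusted p = 0.478). FOSB had 24 UMIs in ileal B cells and none in blood, at least 1.67-fold higher. Counted by levels, 7 members were above blood in every ileal library, against 20% of genes tested. Without the library labelled whole ileum pig 1, 8 members were called and none moved by more than 0.11. Epithelial markers summed to 9.80 to 72.4 CPM in ileal (9 of 9 above 0) and 1.46 and 1.61 CPM in blood B cells, and their part was not tested. The study annotated several kinds of ileal B cells, resting, activated, cycling and transitioning ones. It proposed that blood of pigs lacks cells like its activated B cells. The kinds of cells in this gate can therefore differ between ileum and blood, and their part in the values above was not tested.

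Myeloid cells of blood, unlike lymphocytes of blood, held much FOS and DUSP1 RNA. FOS was at 299.9 and 272 CPM and DUSP1 at 192 and 308 CPM in blood myeloid cells, where blood T and B cells had at most 7.52 CPM of FOS and 19.9 CPM of DUSP1. Of 8 members tested, 7 were higher in ileum and none lower, where 15.7% of 7515 genes were higher and 11.4% lower. CD69 passed the filter through the ileum alone. FOS stood at 343, 460 and 746 CPM in ileum, a log2 fold change of 1.00 ± 0.19 (edgeR adjusted p = 0.00693), and no ileal library reached down to blood. DUSP1, at 179, 274 and 384 CPM in ileum, overlapped with blood and differed by 0.22 ± 0.25 (adjusted p = 0.555).

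CD69, unlike FOS and DUSP1, was scarce in blood myeloid cells. Blood myeloid cells had 1 and 9 UMIs of it (0.383 and 1.08 CPM), and ileal ones had 73.4, 142 and 153 CPM, so that the log2 fold change was 7.17 ± 0.32 (adjusted p = 2.47e-05). CD83 was at 30.6 and 15.4 CPM in blood and 199, 267 and 373 CPM in ileum (3.73 ± 0.34, edgeR adjusted p = 0.00026). NR4A1 was at 9.18 and 6.85 CPM in blood and 53.1, 86.0 and 213 CPM in ileum (3.69 ± 0.25, adjusted p = 6.77e-05). In all 3 genes the groups were apart.

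JUN differed by 1.67 ± 0.18 (adjusted p = 0.000583), with 259 to 363 CPM in ileum and 92.6 and 109.7 CPM in blood. EGR1 (1.83 ± 0.46, adjusted p = 0.0205) and NFKBID (1.18 ± 0.30, adjusted p = 0.0222) passed the test while single ileal libraries overlapped with blood, and EGR1 was at 245 CPM in the non-PP library of pig 1, from 23 UMIs in 24 cells. Levels in 5 members (CD69, CD83, NR4A1, FOS, JUN) were above blood in every ileal library, where 8.93% of genes were. Without the library labelled whole ileum pig 1, 7 members were called, with moves of −0.15 to 0.37, and without both whole ileum libraries 5 were, EGR1 (2.19, adjusted p = 0.0565) and NFKBID (0.96, adjusted p = 0.202) being lost. NFKBID was also lost without whole ileum pig 2 (0.91, adjusted p = 0.153) and with DESeq2 (1.22, adjusted p = 0.0509), and both EGR1 (1.93, adjusted p = 0.0899) and NFKBID (1.24, adjusted p = 0.0669) with sums per library.

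Other values differed in the myeloid gate, and so can the kinds of cells in it. The study annotated its ileal myeloid cells as dendritic cells, macrophages and mast cells. A higher level in ileum is thus not shown to be a change within a single kind of cell. The summed level of its 9 markers was 22528 to 36725 CPM in ileum and 3821 and 5335 CPM in blood, and median depth was 2721 to 5866 UMIs in ileum against 6411 and 7306 in blood. JCHAIN in the gate ranged from 32.02 to 55285 CPM in ileum and stood at 19.1 and 205 CPM in blood, and the mast cell gene MS4A2 was at 38.6 to 982 CPM against 171 and 235 CPM. The part of these differences in the values above was not tested.

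Whether the ileum-blood difference itself differed between lineages was tested as an interaction in 1 fit of the 16 sums of the 4 gates, in which 31.3% of 11066 genes passed. Sums of different gates share pigs, libraries and preparations, and the fit took them as independent. Its p-values rest on 2 pigs and can be too small. The kinds of cells in a gate can also differ between ileum and blood, and their part was not tested. CD69 (adjusted p = 0.000241), CD83 (0.0199), FOS (4.93e-05) and DUSP1 (0.000286) passed, and NR4A1 (0.0804), EGR1 (0.199), JUN (0.292), JUNB (0.3) and NFKBID (0.359) did not. Given the share of all genes that passed, this count does not set the members apart. The FOS difference was smaller in myeloid cells than in T, ILC/NK and B cells by 4.51 ± 0.48, 4.42 ± 0.54 and 3.98 ± 0.48 on the log2 scale, and the DUSP1 difference by 2.88 ± 0.46, 3.20 ± 0.56 and 3.60 ± 0.46. The CD69 difference was larger in myeloid cells than in T cells by 4.18 ± 0.65 and than in B cells by 5.08 ± 0.65. It was smaller in B cells than in ILC/NK cells by 2.93 ± 0.56. These CD69 values rest on 1 and 9 UMIs in blood myeloid and 11 and 14 in blood ILC/NK cells. CD83, with 2 UMIs in blood ILC/NK cells, differed by a smaller fitted amount in B cells (3.94 ± 0.90) and in myeloid cells (3.43 ± 0.95) than in ILC/NK cells. The 4 genes also passed without the library labelled whole ileum pig 1.

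Narrower gates were then compared, because the T cell gate is made up differently in ileum and blood. In CD4 T cells 9 of 9 members tested were higher in ileum, where 8.33% of 6676 genes were, but only CD69 and JUN passed the filter in both tissues. DUSP1 passed it in 1 blood sum. CD83, NR4A1, FOS, JUNB, EGR1 and NFKBID passed it through the ileum alone, so their differences were a condition of their being tested. The count of 9 can therefore not be set against that share. FOS stood at 72.5, 364 and 587 CPM in ileal CD4 T cells and had 2 and 6 UMIs (2.29 and 3.55 CPM) in those of blood, a log2 fold change of 6.95 ± 0.25 (adjusted p = 6.35e-08). DUSP1 (4.54 ± 0.27), CD69 (3.48 ± 0.35), JUN (3.28 ± 0.21) and NFKBID (2.28 ± 0.66) had edgeR adjusted p-values of 1.62e-06, 6.71e-05, 2.1e-06 and 0.041. With DESeq2 the calls of NFKBID (adjusted p = 0.19), CD83 (0.08) and JUNB (0.0858) were lost, NFKBID was also lost without the blood library of pig 1 (1.67, adjusted p = 0.105) and CD83 without that of pig 2 (3.13, adjusted p = 0.0589). Blood CD4 T cells held 1 to 3 UMIs each of CD83, NR4A1, JUNB and EGR1, and the pooled ratios were 14.2 (3.57 to 123), 46.8 (12.6 to 392.2), 10.2 (3.15 to 52.1) and 32.6 (5.43 to 1328). The number called fell to 6 of the members without the library labelled whole ileum pig 1, and to 5 with strict gates and with sums per library, where fewer members passed the filter.

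In the other T cell subsets the filter had again selected members that were high in ileum, and their counts are given with those that passed it in both tissues. CD8 T cells had 7 of 8 tested members higher in ileum (5.47% of genes were), of which CD83, NR4A1 and EGR1 passed the filter through the ileum alone and CD69, FOS, JUN and DUSP1 in both tissues, with FOS at 96.3 to 140 CPM against 3.60 and 6.11 CPM (4.46 ± 0.26, adjusted p = 0.000289) and NFKBID not called (0.50 ± 0.36, adjusted p = 0.417). In γδ T cells with CD2, 6 of 8 were higher (2.51% of genes), CD69, FOS, JUN and DUSP1 after passing the filter in both tissues, NR4A1 in 1 blood sum and EGR1 through the ileum alone. EGR1 there had 113 UMIs in ileum and none in blood, at least 9.19-fold higher, and CD83 (1 UMI in blood, ratio 23.4, interval 4.10 to 934) and NFKBID (0.31 ± 0.40, adjusted p = 0.734) were not called, though CD83 was with the pig as a block (4.55, adjusted p = 0.00518). In γδ T cells without CD2, 6 of 6 were higher (4.75% of genes), but only CD69 and JUN passed the filter in both tissues, DUSP1 in 1 blood sum and CD83, NR4A1 and FOS through the ileum alone. FOS there differed by 6.12 ± 0.34, and its being tested required a high level in ileum. That gate took T cells with a UMI of TRDC and none of CD2, so cells whose CD2 was missed can fall in it. Innate markers summed in it to 595 to 2058 CPM in ileum and 132 and 862 CPM in blood. The kinds of cells in it can thus differ between the tissues, and their part was not tested. Without the library labelled whole ileum pig 1, 4 members were called in CD2+ γδ T cells and 5 in CD2- γδ T cells. NR4A1 (adjusted p = 0.0552 and 0.0572) was lost in both, and DUSP1 (0.0507) in the CD2+ cells. In these CD2+ cells DUSP1 was also lost without the PP library of pig 2 (0.057) and the blood library of pig 1 (0.0926), EGR1 without the latter (0.0597) and CD69 without doublets (0.0506).

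CCR7, the receptor that leads naive and central memory lymphocytes into lymphoid tissue, gave a further pair of gates. In CCR7+ T cells 7 of 8 members were higher in ileum (7.34% of genes), but only CD69, JUN and DUSP1 passed the filter in both tissues, and CD83, NR4A1, FOS and EGR1 passed through the ileum alone. DUSP1 differed by 4.5 ± 0.22 and JUN by 3.72 ± 0.17 (edgeR adjusted p = 2.75e-05 for both), and FOS was at 215 to 495 CPM against 3.38 and 4.43 CPM. NFKBID, not called here, was called with the pig as a block (1.46, adjusted p = 0.00609) and without the blood library of pig 2 (3.30, adjusted p = 0.0116). In CCR7+ B cells 8 of 8 were higher (10.4% of genes), with NR4A1 tested through the ileum alone and EGR1 through 1 blood sum. CD83 rose from 22.4 and 29.2 CPM in blood to 441, 475 and 543 CPM in the 4 ileal libraries with enough cells (4.16 ± 0.19, adjusted p = 4.81e-07), and NFKBID from 19.3 and 12.4 CPM to 78.5, 123 and 172 CPM (2.98 ± 0.31, adjusted p = 8.44e-05). NR4A1 had 1 UMI in these cells of blood and 118 to 184 CPM in ileum, a pooled ratio of 345 (61.8 to 13642). EGR1 in CCR7+ B cells was lost with DESeq2 (3.33, adjusted p = 0.14). The counts in both CCR7+ gates were 7 and 8 without the library labelled whole ileum pig 1.

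Within ileum, T cells of PP tissue carried more RNA of 5 members than T cells of non-PP tissue. One fit of the 6 ileal libraries compared 2 PP with 2 non-PP libraries. DUSP1 was at 131 and 123.5 CPM in PP, 42.9 and 38.6 CPM in non-PP and 89.1 and 81.9 CPM in whole ileum, with a log2 fold change of 1.65 ± 0.13 (adjusted p = 0.00394). CD69 (374 and 378 against 187 and 206 CPM, 0.95 ± 0.13), CD83 (15.4 and 14.6 against 5.86 and 7.27 CPM, 1.21 ± 0.20), FOS (313 and 277 against 166 and 133 CPM, 0.98 ± 0.18) and JUN (443 and 468 against 231 and 279 CPM, 0.85 ± 0.16) had edgeR adjusted p-values of 0.0202, 0.0337, 0.0441 and 0.0448. PP lay above non-PP in both pigs for each of the 5, with whole ileum between them.

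NR4A1 (0.76 ± 0.23, adjusted p = 0.184), NFKBID (1.11 ± 0.29, 0.129), JUNB (0.89 ± 0.36, 0.319) and EGR1 (0.33 ± 0.27, 0.648) did not pass. Called genes made up 1.92% of the 9520 tested. The calls rest on few libraries. DUSP1 alone was called without the library labelled whole ileum pig 1, without either PP library or without whole ileum pig 2, while the other 4 estimates stayed between 0.77 and 1.21. With the pig as a block 7 were called, NR4A1 (0.77, adjusted p = 0.0412) and NFKBID (1.12, 0.0464) being added, and with strict gates, or without the non-PP library of pig 1, 3 (CD69, FOS, DUSP1). Without the non-PP library of pig 2, 7 were called. JUN was also lost without doublets (adjusted p = 0.0502) and with at most 5% mitochondrial UMIs (adjusted p = 0.0556).

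The make-up of the T cell gate moved with the dissection. CD4 T cells were 11.6% and 9.23% of T cells in PP and 1.51% and 3.60% in non-PP, and CCR7+ T cells 13.9% and 13.6% against 0.903% and 2.40%. Markers of other lineages moved too. The 4 B cell markers, all above 0, summed to 48.4 and 45.2 CPM in PP and 4.59 and 6.08 CPM in non-PP T cells, and the 6 innate markers, also all above 0, to 736 and 567 against 1752 and 1371 CPM. In loose RNA, read from barcodes with 1 to 50 UMIs, CD83 was at 142 and 93.0 CPM in PP and 12.6 and 23.7 CPM in non-PP, and CD69 at 282 and 305 against 124 and 227 CPM, whereas FOS, JUN and DUSP1 overlapped between the dissections. The share of barcodes kept as cells was 74.6% and 77.1% in PP and 49.2% and 55.8% in non-PP. The study put its own difference of this kind largely down to poor epithelial cells. Doublet scores over the cut were found in 0.925% and 1.00% of PP and 3.54% and 4.48% of non-PP T cells. The part of these in the PP differences was not tested. The comparison was therefore repeated in the subsets, a choice made after these values were seen. In CD4 T cells FOS was at 502 and 587 CPM in PP and at 126 and 72.5 CPM in non-PP (2.49 ± 0.31, adjusted p = 0.00105). JUN (1.56 ± 0.27, 0.0107), CD69 (1.48 ± 0.24, 0.00623) and DUSP1 (1.44 ± 0.34, 0.0489) were also called, 4 of the 5 members tested, where 1.68% of genes were. The non-PP libraries held 40 and 81 CD4 T cells. The make-up of the CD4 gate can differ too. The study found follicular and cycling CD4 T cells to be more abundant in PP, and CD69 to be higher in the follicular ones. The part of this in the CD4 values was not tested. When whole ileum pig 1 was left out the same 4 were called (adjusted p of 0.000238 to 0.0237), and no member in the other subsets.

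No member was called in the other subsets with edgeR, where 0.0986% (CD8 T), 0.071% (CD2+ γδ T), 0.158% (CD2- γδ T) and 0% (CCR7+ T) of genes were. At an unadjusted p under 0.05 the counts were 4 of 8, 0 of 7, 2 of 6 and 4 of 8. The share of all genes at that unadjusted threshold was not counted, so these counts cannot be set against the shares above. The PP effect of CD4 T cells was then tested against that of 2 other subsets. FOS differed by 2.31 ± 0.42 from CD8 T cells (adjusted p = 0.0869) and by 2.26 ± 0.41 from CD2+ γδ T cells (adjusted p = 0.053), and no member passed in either test, where 0.0276% and 0.0414% of genes did. In ILC/NK cells and B cells no member was called between PP and non-PP by edgeR or by DESeq2, against 0.102% and 0.0298% of genes in edgeR. At an unadjusted p under 0.05, CD83, FOS and DUSP1 of 6 members tested in ILC/NK cells and CD69 of 9 in B cells were higher in PP. Here too the share of all genes at that threshold was not counted.

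**Figure D3:**
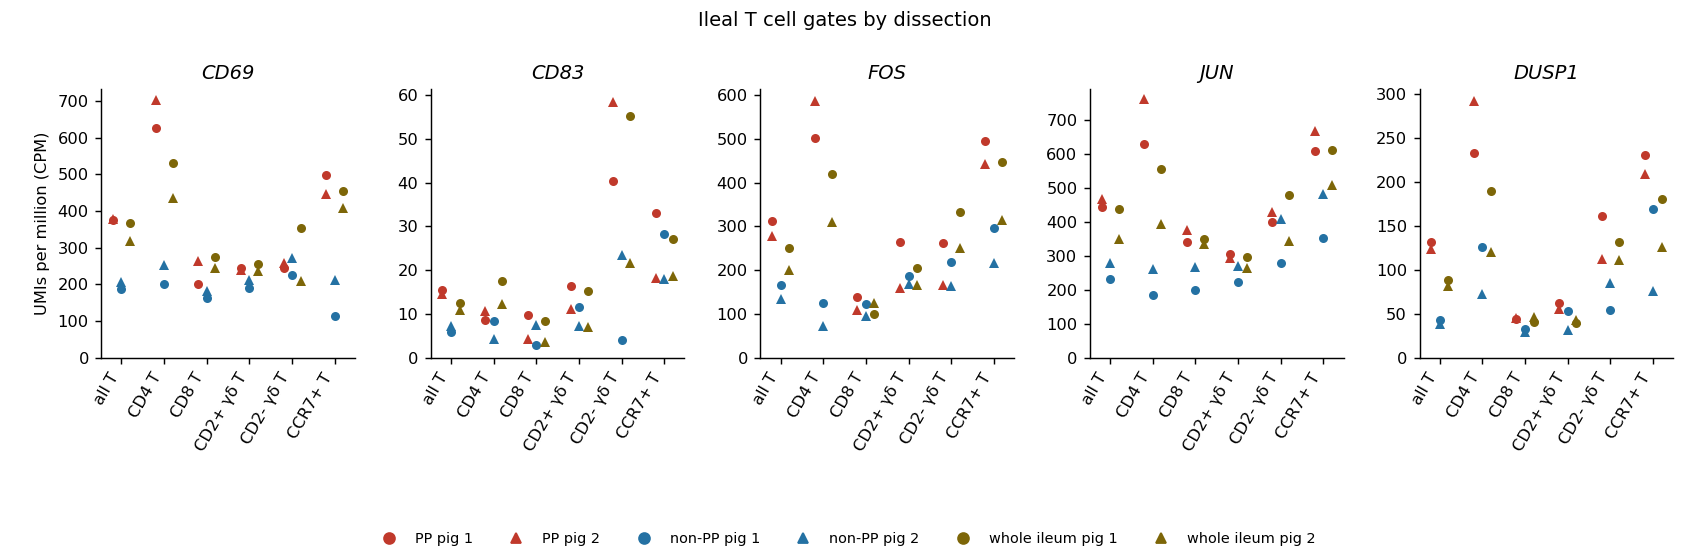
CPM of CD69, CD83, FOS, JUN and DUSP1 in the T cell gate and its subsets, 1 point per ileal library, linear axes that start at 0. In CD4 T cells the PP libraries stand highest for CD69, FOS, JUN and DUSP1, with FOS at 502 and 587 CPM, and in CD8 T cells the dissections overlap for FOS, at 96.3 to 140 CPM.

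Each gene had its own order of levels over the gates of ileum, described here without a test. Epithelial cells of 4 libraries stood highest for FOS (2292 ± 1342 CPM, SD) and EGR1 (591 ± 196 CPM), and neither range overlapped with that of the next gate. They also had the highest means of JUN (1183 ± 429 CPM), DUSP1 (1049 ± 804 CPM) and NR4A1 (213 ± 81.7 CPM), where the range did overlap with that of CCR7+ B cells. CD69 (14.2 ± 6.58 CPM) and CD83 (3.52 ± 3.44 CPM), genes of leukocytes, were lowest in epithelial cells. No epithelial value rests on the library labelled whole ileum pig 1, which had under 20 such cells.

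CCR7+ B cells led for CD83 (483 ± 44.7 CPM) and NFKBID (124 ± 38.8 CPM), apart from myeloid cells in second place (278 ± 68.5 and 31.7 ± 23.2 CPM). CD4 T cells led for CD69 (458 ± 201 CPM) and JUNB (9.87 ± 6.05 CPM), but both overlapped with the next gates. In blood the myeloid gate led for FOS, DUSP1, NR4A1, JUN and EGR1, and its range lay apart from the next gate in each.

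Counting members per cell showed how widely they were shared. Each cell was thinned to the least number of UMIs that a kept cell could have, so that depth did not differ. At least 1 of the 10 genes was found in 48.1% to 63.2% of ileal T cells and in 13.01% and 19.0% of blood T cells. At least 3 were found in 2.97%, 8.23% and 15.03% (lowest, median and highest of 6) of ileal T cells, in 0 of 3021 blood T cells of pig 1, which allows a share of up to 0.0993%, and in 0.0776% of 2577 of pig 2 (95% Wilson interval 0.0213 to 0.283, counting error only).

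The share with 3 or more was highest in epithelial cells (22.6% to 64.3%) and in CCR7+ B cells (37.5% to 52.3%). In CD4 T cells it was 26.4% and 25.9% in PP and 2.50% and 3.70% in non-PP, with Wilson intervals of 20.8 to 32.9, 19.8 to 33.1, 0.443 to 12.9 and 1.27 to 10.3. In myeloid cells it was 9.76% to 20.8% in ileum and 1.19% and 2.56% in blood, though 48.7% and 56.0% of blood myeloid cells had at least 1 of the genes. With whole ileum pig 1 left out the median share in ileal T cells was 6.12%, and the lowest and highest were the same. The T cells of PP (15.03% and 12.95%) lay above those of non-PP (2.97% and 3.06%), with whole ileum between (10.3% and 6.12%).

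**Figure D4:**
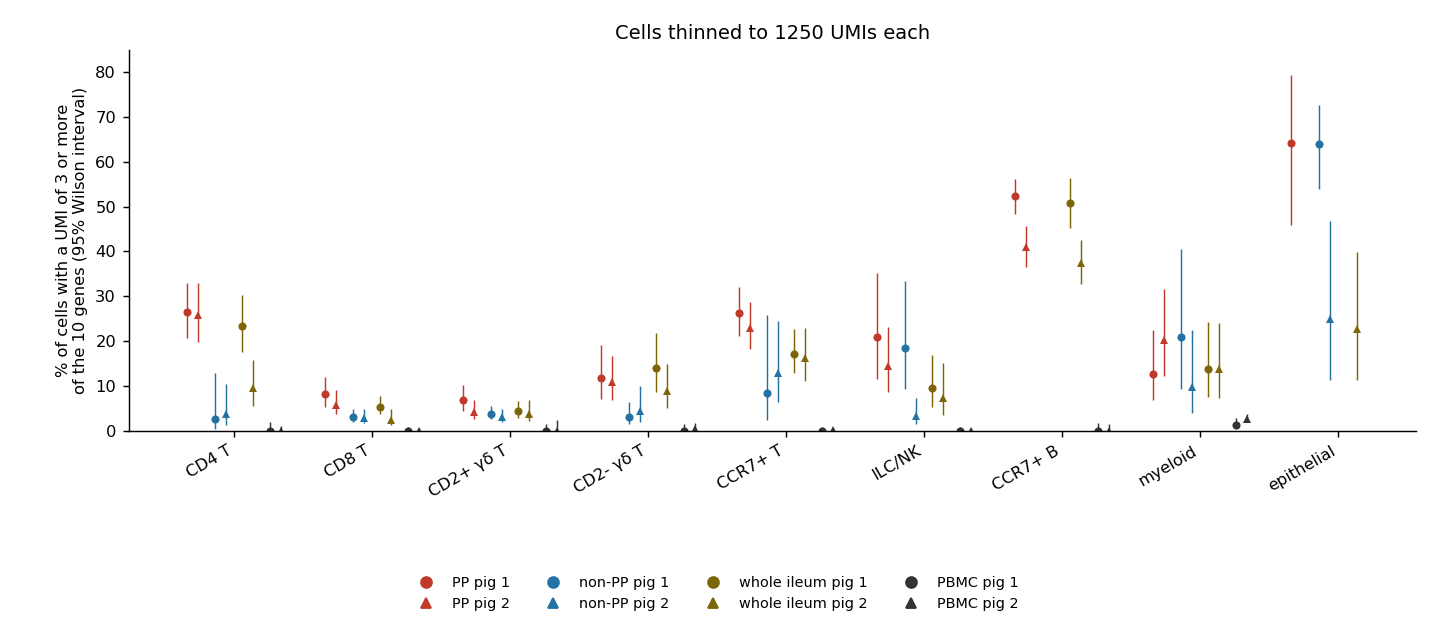
Share of cells with a UMI of at least 3 of the 10 genes after thinning to the same number of UMIs per cell, in 9 gates and in each library with at least 20 cells, with 95% Wilson intervals. CCR7+ B cells stand at 37.5% to 52.3% in ileum, and the 2 blood libraries stand at 0 in that gate.

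In T and B cells of ileum several members were found more often in cells that also had a FOS UMI. Thinned T cells with a FOS UMI had a JUN UMI in 44.0% (median of 6 libraries) and those without FOS in 28.7%, and the order was the same in 6 of 6 libraries. CD69 (40.05% against 23.5%), DUSP1 (17.1% against 7.41%) and JUNB (1.09% against 0.442%) were also more frequent beside FOS in 6 of 6, EGR1 and NFKBID in 5 of 6, CD83 and NR4A1 in 4 of 6 and FOSB in 3 of 6. In B cells of the 4 libraries with enough cells, all members but FOSB were more frequent beside FOS in 4 of 4, for example CD83 at 31.5% against 16.3%. Other gates had few libraries with enough cells and went both ways. In 2 libraries of ileal ILC/NK cells CD69, JUN and DUSP1 were more frequent beside FOS in both, CD83 in 1 and NR4A1 in neither, in 1 of ileal myeloid cells CD83 was at 15% beside FOS and 23.5% without, and in 1 of blood T cells CD69 at 5% and 7.16%. When whole ileum pig 1 was left out, JUN in T cells was at 36.6% against 27.7% and CD69 at 35.1% against 22.8%, in the same order in 5 of 5 libraries. Cells of a gate differ in subset and quality, and the part of these was not tested.

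Levels also moved with the mitochondrial share of a cell, which can follow RNA quality but also differed between T cell subsets. In the PP library of pig 1 its median was 2.42% in CCR7+, 2.89% in CD4 and 4.00% in CD8 T cells. The order was the same in every ileal library. The part of subset and of quality in the differences below was not tested. T cells of each library were split at the library's median share into a low and a high group of cells. In the low group CD69, NR4A1, FOS, JUN, EGR1 and DUSP1 were higher in 6 of 6 ileal libraries. FOS stood 1.61, 2.32 and 3.49 times (lowest, median and highest) above the high group, JUN 1.26 to 2.26 times and CD69 1.21 to 2.09 times. With whole ileum pig 1 left out the FOS median was 1.85 times, and the 6 genes were higher in 5 of 5. In blood T cells JUN was lower in the low group in both libraries (0.686 and 0.720 times), FOS in 1 of 2, and CD69 was higher in both. CD83 in ileal myeloid cells ran the other way and was lower in the low group in 6 of 6 libraries (0.326 to 0.855 times). With cells of at most 5% mitochondrial UMIs, the members called in T, ILC/NK, B and myeloid cells numbered 8, 7, 8 and 7.

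**Figure D5:**
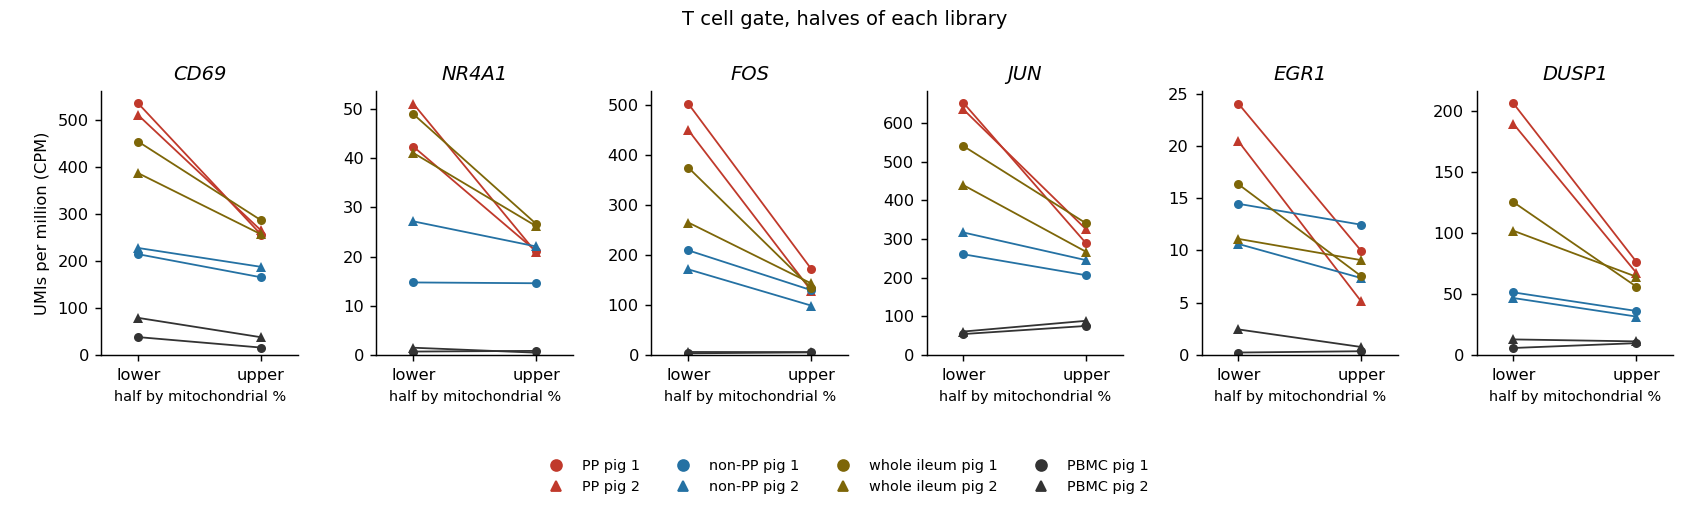
CPM of 6 genes in T cells with a mitochondrial share below and above the median of their library, with a line for each library. In all 6 ileal libraries the cells with the lower share stand higher, by 1.61 to 3.49 times for FOS, and in blood JUN runs the other way.

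RNA outside cells, read from barcodes with 1 to 50 UMIs, held the same genes. FOS was at 221 to 701 CPM there in ileum and 60.2 and 112 CPM in blood, JUN at 177 to 286 and 41.2 and 59.97 CPM, DUSP1 at 113 to 283 and 40.4 and 128 CPM, and CD69 at 124 to 305 and 42.0 and 60.4 CPM. These are levels within loose RNA, not its share of a cell's UMIs. A cell type that lacks a gene, here epithelial cells, shows a background for 2 of them, but no upper bound for T cells. Epithelial cells were deeper, so the same number of loose UMIs would be a smaller share of a cell's UMIs. The background in T cells can therefore be higher. CD69 and CD83 had a UMI in 0% to 5% and 0% to 1.03% of thinned epithelial cells, against 20.4% to 32.1% and 0.577% to 1.62% of ileal T cells, at median depths of 4098 to 8178 and 2205 to 2743 UMIs, so the share of T cells with CD83 was not clear of that background. For the other members no gate without the gene was at hand, and the part of loose RNA was not tested.

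The members were set beside 4 lists of other genes, chosen with earlier results of these data known. Their counts stand beside shares over all genes tested of 9.11% higher and 6.53% lower in T, 10.5% and 9.65% in ILC/NK, 21.5% and 20.3% in B and 15.7% and 11.4% in myeloid cells. Of 24 further immediate early genes named in the tables, 16 of 22 tested were higher in ileal T cells and none was lower (median log2 fold change 2.87), 12 of 15 in ILC/NK cells (3.14), 15 of 18 in myeloid cells (2.80), and in B cells 15 of 22 were higher and 3 lower (1.78). Medians of all genes were between −0.03 and 0.00 in these fits. NR4A2, a relative of NR4A1, was at 243 and 215 CPM in the ileal T cell sums of the pigs and 6.56 and 2.34 CPM in blood (5.64 ± 0.47, adjusted p = 0.00455). ATF3, a partner of JUN, rose in B cells from 5.83 and 4.12 CPM to 175 and 130 CPM (4.76 ± 0.23, adjusted p = 0.000229). MAFF was at 8.79 and 6.598 CPM in ileal T cells with no UMI in blood T cells, so its being tested required a high level in ileum. In ILC/NK and B cells MAFF was likewise absent from both blood sums. The filter on low counts acts on the lists as on the members. Counts and medians of the lists were not split by the tissue in which a gene passed it.

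NF-κB feedback genes and targets were higher in ileum in 7 of 14 (T), 11 of 14 (ILC/NK) and 11 of 14 (myeloid) genes tested and lower in none, and in B cells 7 were higher and 2 lower, with medians of 1.11, 1.95, 1.80 and 0.87. TNFAIP3, which ends NF-κB signaling, stood at 383 and 318 CPM in ileal and 19.0 and 18.4 CPM in blood T cells (4.21 ± 0.16, adjusted p = 0.00111). CXCL8, a chemokine for neutrophils, was at 310 and 306 CPM in ileal ILC/NK cells and had no UMI in those of blood. It could pass the filter there only through the ileum, as could CXCL8 in T cells and ICAM1 in ILC/NK cells. The study counted CXCL8 among the genes of a group of ileal ILCs, and the part of the kinds of cells was not tested. NFKBIA, the main cytoplasmic inhibitor, was at 837 and 630 CPM in ileal and 99.8 and 171 CPM in blood myeloid cells (2.60 ± 0.28, edgeR adjusted p = 0.000517).

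Of 10 heat shock genes tested, 2 were higher in T cells, 3 in ILC/NK cells and 1 each in B and myeloid cells, and none was lower, with medians of 0.83, 1.07, 0.80 and 0.44. In B and myeloid cells that is no more than the share of all genes. DNAJB1, a co-chaperone, was called in all 4 gates, in T cells at 213 and 424 CPM against 44.3 and 71.1 CPM (2.44 ± 0.40, adjusted p = 0.0206), but not in T cells without the library labelled whole ileum pig 1 (2.30, adjusted p = 0.0639). Genes of tissue retention and egress went both ways, 7 higher and 5 lower of 16 in T cells, 7 and 5 of 15 in ILC/NK cells, 8 and 6 of 15 in B cells and 8 and 3 of 11 in myeloid cells (medians 0.17, 0.18, 0.75 and 2.84). RGS1, which dampens chemokine receptor signals, was at 1080 and 1003 CPM in ileal and 39.3 and 33.3 CPM in blood T cells (4.82 ± 0.16), and S1PR5 at 0.592 and 0.320 against 86.7 and 33.7 CPM (−6.99 ± 0.67), with edgeR adjusted p-values of 0.00111 and 0.006.

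When whole ileum pig 1 was left out, further immediate early genes numbered 14 higher in T and 15 higher and 1 lower in B cells, heat shock genes 1 higher in T and in ILC/NK cells, and retention and egress genes 6 higher and 4 lower in ILC/NK and 7 and 2 in myeloid cells, with the other counts as above. The median of the retention and egress genes in ILC/NK cells was then −0.07.

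Between PP and non-PP T cells the lists differed in how many of their genes were called, where 1.92% of all genes were. Of the further immediate early genes 1 was higher and 1 lower of 20, of the NF-κB genes 1 was higher of 14, of the heat shock genes none of 10, and of the retention and egress genes 4 were higher of 15. Their medians were 0.30, 0.37, −0.02 and 0.24, against 0.95 for the members and −0.01 for all genes. With whole ileum pig 1 left out only 3 genes of the lists, all of retention and egress, were called.

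The genes with the most similar pattern were sought over 66 sums of gate and library, which share libraries, among 8178 genes with a mean of at least 5 CPM. FOS, JUN, NR4A1 and DUSP1 lay close to one another. FOS had ATF3 (Pearson's r = 0.915), NR4A1 (0.911) and JUN (0.903) as its nearest genes, JUN had PPP1R15A (0.938), FOS and ATF3, and NR4A1 had FOS, ATF3 (0.874) and JUN (0.872). DUSP1 had INSIG1 (0.899), FOS (0.898) and NR4A1 (0.850), and EGR1 had PHLDA2 (0.825), ATF3 (0.802) and KLF4 (0.800).

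The surface genes lay elsewhere. CD69 had CXCR4 (0.841), EIF1 (0.817) and RGS1 (0.793), with r = 0.293 to FOS and 0.00313 to EGR1. CD83 had PHACTR1 (0.857), SGK1 (0.759) and BCL2A1 (0.755), and NFKBID had CD83 (0.688), TNF (0.667) and GADD45B (0.638). FOSB and JUNB had means under 5 CPM and were left out. Over the 58 sums without the library labelled whole ileum pig 1, the first and second nearest gene of each member were the same except that TNF fell to rank 5 for NFKBID (0.637). The third genes were less stable. RGS1 for CD69, BCL2A1 for CD83 and JUN for NR4A1 fell to rank 4, NR4A1 for DUSP1 to rank 5 and GADD45B for NFKBID to rank 10. Those of FOS, JUN and EGR1 stayed at rank 3.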

How the data were processed

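The deposited values are UMI counts per gene and barcode in unfiltered matrices, which the authors made with Cell Ranger (4.0.6 in the submitters' processing notes) on Sscrofa11.1 with a modified Ensembl annotation, before their removal of loose RNA, cell filters and doublet calls. The 4 runs of a library had been pooled.

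Cells were filtered at the study's limits on UMIs, genes (550 or more) and mitochondrial share and gated on marker UMIs. Counts were summed per pig and tissue, or per ileal library for PP against non-PP, and tested with edgeR 4.0.16 (R 4.3.3, quasi-likelihood, TMM, filterByExpr at a minimum count of 10, Benjamini-Hochberg over all genes, called at an adjusted p under 0.05), a script tested on simulated data. CPM are the UMIs of a gene in a gate scaled to the same total. Gates under 20 cells in a library were not used. Cells were thinned to the smallest UMI count kept with numpy 2.4.6, and scipy 1.17.1 gave intervals. Doublets stayed in the main results, and Scrublet in scanpy 1.11.5 (2.75% to 3.93% marked) was an alternative, as were DESeq2 1.42.0, no filter, strict gates, at most 5% mitochondrial UMIs, sums per library, the pig as a block and leaving out libraries. All 10 members were named, of each other list at most 3 genes per gate with the largest called change, and for each member the 3 genes with the highest correlation of log2(CPM + 1).

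The members and lists were chosen with earlier results of these data known. Blood and ileum of a number come from 1 animal by the labels, which the Y-linked UMIs of 1 library go against, and the pig differences of ileum and blood correlated across genes at r = 0.391 (T), 0.0959 (ILC/NK), 0.285 (B) and 0.156 (myeloid). Motif searches that had been planned were not done. A marker of the B cell gate and a B cell subset are not reported here. Intervals cover counting error only.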

Additional observations from a re-analysis of the deposited data

Results flagged for a closer look

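EGR1 in myeloid cells stood apart in 1 ileal library. The non-PP library of pig 1 had 245 CPM, from 23 UMIs in 24 cells, and the next library had 58.1 CPM, so that the gap took 0.783 of the whole range of the 6 libraries. NFKBID in ILC/NK cells was at 66.4 CPM in the same library, from 6 UMIs in 38 cells, with 31 CPM in the next (0.71 of the range). These were 2 of 35 groups of ileal libraries examined, and chance gives about 1 in 20.

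The ileum-blood difference itself differed between lineages for 4 members, on the log2 scale and by the interaction test. NR4A1, EGR1, JUN, JUNB and NFKBID did not pass that test. Many genes passed it, 31.3% of the 11066 tested, so passing does not set the 4 members apart. The fit took sums of gates from the same pigs as independent, so its p-values can be too small. The values below are for single pairs of lineages, and the share of all genes that passed for a pair is not given. For CD69 the difference in myeloid cells minus that in T cells was 4.18 (edgeR adjusted p = 0.00113), myeloid minus B cells 5.08 (0.000159), and B minus ILC/NK cells -2.93 (0.00322). The CD69 values rest on 1 and 9 UMIs in blood myeloid and 11 and 14 in blood ILC/NK cells. For FOS, myeloid minus T, ILC/NK and B cells was -4.51 (8.65e-05), -4.42 (0.000291) and -3.98 (0.000113). For DUSP1 the same 3 values were -2.88 (0.00128), -3.20 (0.00262) and -3.60 (0.000175). For CD83, B minus ILC/NK cells was -3.94 (0.00985) and myeloid minus ILC/NK cells -3.43 (0.0336), and both rest on 2 UMIs in blood ILC/NK cells.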

How the results depend on the processing

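No member's difference turned its direction past the threshold in any alternative that was run. Members called ranged over all settings from 8 to 10 in T, 6 to 8 in ILC/NK, 8 in every setting in B and 5 to 7 in myeloid cells, 5 to 9 in CD4, 6 to 7 in CD8, 4 to 7 in CD2+ γδ, 5 to 7 in CD2- γδ and 7 to 9 in CCR7+ T cells, 7 to 8 in CCR7+ B cells, 0 to 7 between PP and non-PP T cells, 0 to 2 in ILC/NK and 0 in B cells, and 4 to 5 for the lineage differences. Few UMIs limit what can be said of FOSB, JUNB and, in blood, CD83, NR4A1 and EGR1, and why their UMIs were few was not tested. Strict gates for PP against non-PP could not be fitted in ILC/NK and B cells (under 20 cells), and epithelial cells were not tested between dissections for the same reason.

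Numbers of all genes called moved more. The main counts were 1627 (T), 1320 (ILC/NK), 4361 (B), 2030 (myeloid), 916 (CD4 T), 890 (CD8 T), 342 (CD2+ γδ T), 532 (CD2- γδ T), 895 (CCR7+ T) and 1389 (CCR7+ B), and 183, 3 and 3 between PP and non-PP in T, ILC/NK and B cells. With the pig number as a replicate block, which follows the animals by the labels although the ileal sum of pig 1 includes the library with Y-linked UMIs, they were 3173 (T), 1509 (CD8 T), 841 (CD2+ γδ), 1237 (CD2- γδ) and 1706 (CCR7+ T), and 547, 33 and 13 between PP and non-PP. The block also brought calls for CD83 in CD2+ γδ T cells (adjusted p = 0.00518), NFKBID in CCR7+ T cells (0.00609) and the lineage differences of NR4A1 (myeloid minus T -1.54, minus B -1.73) and EGR1 (myeloid minus T -2.16), and changed no member's call beyond these and those named in the report.

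With DESeq2 the counts were 724 (ILC/NK), 470 (CD4 T), 347 (CD2- γδ), 565 (CCR7+ T), 704 (CCR7+ B), and 285, 13 and 12 between PP and non-PP. Without a filter they were 2644 (T), 3088 (myeloid), 1839 (CD8 T), 1376 (CD2+ γδ), 1496 (CCR7+ T), and 801, 79 and 12, with 2 members (CD83, FOS) between PP and non-PP ILC/NK cells. At most 5% mitochondrial UMIs gave 1001 (T), 513 (CD8 T), 220 (CD2+ γδ), and 6 and 0 for PP in ILC/NK and B cells. Sums per library gave 2617 (T), 1286 (myeloid), 1390 (CD8 T), 1330 (CD2+ γδ) and 5 members in CD4 T cells. Strict gates gave 1193 (myeloid), 610 with 5 members (CD4 T), 832 (CCR7+ B) and 3 members for PP in T cells. Without both whole ileum libraries the counts were 828 (ILC/NK), 607 (CD4 T), 207 (CD2+ γδ), 351 (CD2- γδ) and 536 (CCR7+ T). T subsets in place of all T cells, an alternative chosen after seeing the data like the omission of a whole ileum library from the PP and lineage fits, gave 76 genes (CD4), and 0 members with 7 (CD8), 5 (CD2+ γδ), 6 (CD2- γδ) and 0 genes (CCR7+). The cause was not tested.

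Leaving out 1 library or pig gave 8 to 9 members and 1109 to 2441 genes (T), 7 and 886 to 1681 (ILC/NK), 8 and 3469 to 4367 (B), 6 to 7 and 1662 to 2157 (myeloid), 6 to 9 and 678 to 1081 (CD4 T), 7 and 617 to 1039 (CD8 T), 4 to 7 and 195 to 1160 (CD2+ γδ), 5 to 7 and 379 to 707 (CD2- γδ), 7 to 8 and 616 to 1341 (CCR7+ T) and 8 and 1096 to 1573 (CCR7+ B). For PP against non-PP it gave 1 to 7 members and 33 to 350 genes (T), 0 to 2 and 5 to 81 (ILC/NK) and 0 and 0 to 24 (B), and for the lineage differences 4 members and 2709 genes. Without the non-PP library of pig 1, CD83 (2.10, adjusted p = 0.00995) and FOS (1.497, adjusted p = 0.0156) were called between PP and non-PP ILC/NK cells. Without whole ileum pig 1 the PP fits of the T subsets gave 79 (CD4), 7 (CD8), 2 (CD2+ γδ), 4 (CD2- γδ) and 11 (CCR7+) genes. With an arm of 1 library, that library was taken to vary like the others.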
